A study of Mus musculus with 6 samples.

Results

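The nuclear genes of respiratory complexes II to V, the mitochondrial enzymes that carry electrons to oxygen and make ATP, lay slightly above the controls in the adult cerebellum of mice born to dams given methylmercury (MeHg) during pregnancy, but none of them passed the test used here. The genes were taken as the protein-coding rows of the deposited count table whose symbols name a subunit of these complexes (Sdha to Sdhd, Uqcr, Cyc1, Cox4 to Cox8, Atp5, mt-Co, mt-Cytb and mt-Atp) and whose mean over the 6 libraries was at least 1 CPM, counts scaled to the size of the library. That left 52 of the table's 56748 genes. Of these, 46 are coded in the nucleus (4 for complex II, 9 for complex III, 16 for complex IV and 17 for complex V) and 6 in the mitochondrial genome. The names matched 56 rows in all. Of the other 4, Cox7b2 lay just outside the limit at 0.730 CPM and Cox8b at 0.729 CPM, while Cox8c and a second row of the symbol Atp5o had no count. The member just inside the limit was mt-Atp8 at 1.06 CPM.

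Bulk RNA was sequenced from the cerebellum of 6 C57BL/6J mice aged 90 to 120 days. For 3 of them, the MeHg group, the dam had drunk water with 0.2 ppm MeHg from the start of pregnancy to birth. For the other 3, the Control group, the water held 0 ppm over the same period. By the labels, Control replicate 3 and MeHg replicate 2 were male and the other 4 mice female. No label names the dam or litter of a mouse, so the p-values reflect only how far these 6 animals differ and cannot account for shared mothers.

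Complex II, succinate dehydrogenase, passes electrons from the tricarboxylic acid cycle to ubiquinone. Complex III passes them on to cytochrome c, and complex IV, cytochrome c oxidase, hands them to oxygen. Complexes III and IV pump protons across the inner mitochondrial membrane, and complex V, ATP synthase, lets the protons flow back to make ATP. Complex II is coded wholly in the nucleus, whereas the catalytic core of complexes III and IV and the proton channel of complex V each contain subunits made from mitochondrial DNA. Neurons of the cerebellum depend on this pathway for most of their ATP.

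The libraries held between 14116088 and 20303833 counts. The library labelled Control replicate 2, female, had Xist at -0.42 log2 CPM and 216 CPM of Y-linked RNA, the levels of the libraries labelled male. By these levels Control replicates 2 and 3 and MeHg replicate 2 were male, so that sex was spread unevenly over the groups. Some results are also given without Control replicate 2. Markers of cell types also varied between libraries. The ependymal, granule cell and Purkinje cell sums did not overlap between the groups, the last by a narrow gap. Choroid plexus, brainstem and oligodendrocyte sums overlapped. Summed choroid plexus markers (10 of 10 found, none at 0) were at 3121, 765 and 154 CPM in Control replicates 1 to 3 and at 4425, 2577 and 10205 CPM in MeHg replicates 1 to 3. Ependymal markers summed to 16.8 to 25.6 CPM in Control and 39.4 to 63.7 CPM in MeHg, granule cell markers to 6843 to 7383 and 5075 to 5905 CPM, and brainstem markers reached 198 CPM in MeHg replicate 2 against at most 16.1 CPM elsewhere. Purkinje cell markers summed to 7743 to 8566 CPM in Control and 5925 to 7739 CPM in MeHg, and oligodendrocyte markers to 5134 to 5853 CPM and 5775 to 7883 CPM. By edgeR, 5 of the 10 granule cell markers were called lower and 2 of the 7 ependymal markers tested were called higher. Of all genes, 1.79% were called lower and 0.575% higher. No marker of the other sets was called. None of the granule or Purkinje cell markers was at 0 in any library. In bulk tissue, fewer cells of a type and less RNA per cell cannot be told apart.

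The 6 mitochondrially coded genes were taken up before the nuclear ones because a nuclear copy of the mitochondrial genome limits what their rows hold. On mouse chromosome 1, between bases 24650616 and 24655269 of mm39 on the minus strand, the reference carries a copy of part of the mitochondrial genome. Over their whole length, mt-Co2 (684 bases), mt-Atp8 (204 bases), mt-Atp6 (681 bases) and mt-Co3 (784 bases) were identical to that copy. Of mt-Co1, 483 bases (31.3% of the gene) had a counterpart there, with the single substitution A1066T (positions counted from the start of the gene, the mitochondrial base given before the position and the base of the copy after it). In this window mt-Cytb had no counterpart, and no other part of the nuclear genome was compared. The stretches below are each read in the direction of the mitochondrial gene. Those of mt-Co2 and mt-Co3 show why rows with a full copy cannot be separated by sequence. That of mt-Co1 shows the single substitution, at the edge of the 483 bases, which are only part of the gene. The capital marks the differing base, and a pair with none is the same throughout.
mt-Co1 in the mitochondrial genome: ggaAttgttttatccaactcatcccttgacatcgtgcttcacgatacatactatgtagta
mt-Co1 copy on chromosome 1: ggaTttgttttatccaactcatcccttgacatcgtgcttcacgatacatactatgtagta
mt-Co2 in the mitochondrial genome: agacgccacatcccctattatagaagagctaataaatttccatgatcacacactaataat
mt-Co2 copy on chromosome 1: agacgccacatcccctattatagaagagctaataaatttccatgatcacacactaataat
mt-Co3 in the mitochondrial genome: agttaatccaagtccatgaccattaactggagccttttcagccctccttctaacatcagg
mt-Co3 copy on chromosome 1: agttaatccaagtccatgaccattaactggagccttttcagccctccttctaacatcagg
The mt-Co1 stretch covers bases 1063 to 1122 of the gene (6390 to 6449 of the mitochondrial genome, and 24655210 to 24655269 of chromosome 1). The mt-Co2 stretch covers bases 30 to 89 of the gene (7042 to 7101, and 24654558 to 24654617), and the mt-Co3 stretch the same bases of its gene (8636 to 8695, and 24652964 to 24653023).

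The levels followed this split. mt-Co1, the catalytic subunit of complex IV, was at 10185, 13177 and 10054 CPM in Control and 12322, 11605 and 13713 CPM in MeHg. mt-Cytb, the cytochrome b of complex III, was at 4252, 5066 and 3772 CPM in Control and 5066, 4749 and 5881 CPM in MeHg. For both genes the highest library was MeHg replicate 3, the lowest was Control replicate 3, and the groups overlapped, since Control replicate 2 reached into the MeHg range. The log2 fold change, MeHg over Control, was 0.17 ± 0.13 (SE) for mt-Co1 and 0.26 ± 0.13 for mt-Cytb, with adjusted p of 0.444 and 0.243 by edgeR's quasi-likelihood test. Without Control replicate 2 the values were 0.31 and 0.38, with adjusted p of 0.166 and 0.132.

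The 4 genes with a full copy were far lower. mt-Co2, which takes electrons from cytochrome c, was at 66.1, 113 and 93.8 CPM in Control and 42.7, 77.2 and 250 CPM in MeHg. mt-Atp6, part of the proton channel of complex V, was at 34.0, 153 and 53.5 CPM in Control and 86.7, 41.5 and 75.2 CPM in MeHg. mt-Co3, a core subunit of complex IV, was at 58.1, 75.7 and 29.0 CPM in Control and 47.0, 30.6 and 34.3 CPM in MeHg. In each of the 3 the groups overlapped, and the highest value came from 1 library: MeHg replicate 3 for mt-Co2 and Control replicate 2 for mt-Atp6 and mt-Co3. mt-Atp8, a small subunit of complex V, was at 0.558, 0.848 and 1.01 CPM in Control and 1.11, 1.90 and 0.944 CPM in MeHg, from 11 to 29 counts a library, a log2 fold change of 0.73 ± 0.39 with overlapping groups.

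The rows of the copy itself also held counts, and their size relative to the mitochondrial row differed by gene and library. The row Gm28437, the counterpart of mt-Co3, had 3219, 2298 and 1529 counts in Control and 2278, 1368 and 2324 in MeHg, above the 1146, 1517 and 404 and the 760, 467 and 509 counts of mt-Co3. With both rows added, mt-Co3 came to 221, 190 and 139 CPM in Control and 188, 120 and 191 CPM in MeHg, and mt-Co2 with Gm28661 to 90.03, 140 and 210 CPM in Control and 69.6, 108 and 296 CPM in MeHg. The sum of mt-Atp6 and Gm10925 was 64.2, 200 and 112 CPM in Control and 143, 84.5 and 116 CPM in MeHg. For mt-Atp8 no row of the copy was found. The sums stayed far under the level of mt-Co1, so that adding the copy's rows did not bring these genes to the level of the gene that is mostly unique. The values of mt-Co2, mt-Atp6, mt-Atp8 and mt-Co3 are therefore uncertain as levels of mitochondrial RNA, and how the counting treated reads with more than 1 place is not given in the sources used here. None of the 6 genes passed the test, none at an unadjusted p under 0.05, and in none were the groups apart. mt-Co2 stood at a log2 fold change of 0.44 ± 0.53 with all libraries and at -0.60 without MeHg replicate 3. mt-Atp6 stood at -0.25 ± 0.49 and at 0.64 without Control replicate 2, and mt-Co3 at -0.55 ± 0.30, at -0.23 without Control replicate 2 and at -0.84 without Control replicate 3. With no filter on low counts, mt-Co2 was called higher and mt-Co3 lower.

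**Figure D1:**
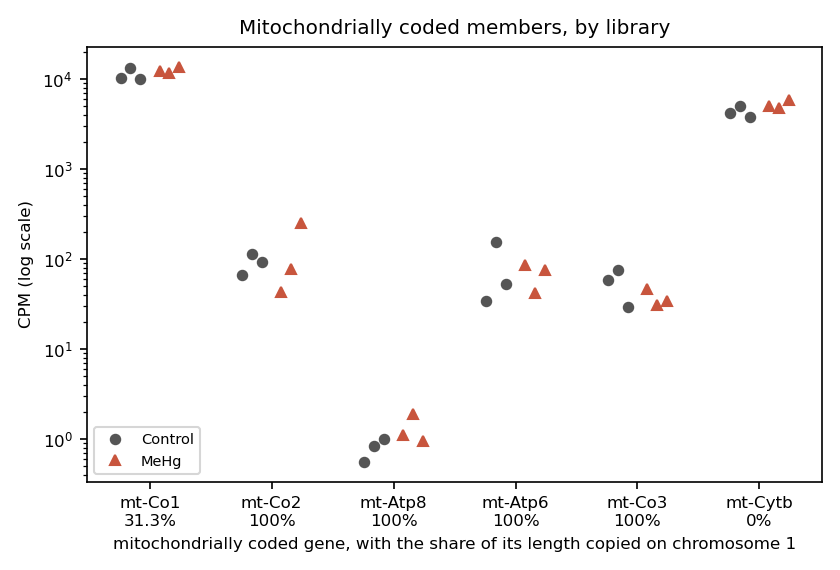
Level of the 6 mitochondrially coded genes in each library, in CPM on a log axis, with 1 point per library and the groups side by side. mt-Co1 and mt-Cytb lie between 3772 and 13713 CPM, and the 4 genes with a full nuclear copy lie at or below 250 CPM, with overlapping groups in all 6.

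Across the 46 nuclear genes the shift was small and in one direction. The log2 fold change was positive for 45 of 46, against 51.1% of the 16859 genes tested, and its median was 0.22 against 0.0062 for all genes. All 3 MeHg libraries lay above all 3 Control libraries for 29 of the 46, against 13.9% of all genes, and for none did all 3 lie below, against 15.5%. At an adjusted p under 0.05 by edgeR, 0 of the 52 genes were called, against 0.575% of all genes called higher and 1.79% called lower. At an unadjusted p under 0.05, 26 of the 52 were higher, all of them nuclear, against 11.8% of all genes, and 0 were lower, against 12.7%. DESeq2 called 7 higher and 0 lower, against 3.38% and 4.89% of all genes: Cox4i1, Atp5g3, Atp5d, Cox6c, Cox5b, Sdhc and Uqcr11. limma-voom called 0, against 0.475% and 1.65%, and limma on log2 FPKM called 0 with no gene called in the table. With no filter on low counts 15 were called higher and 1 lower, against 3.73% and 3.66%. With the Xist level as a covariate 4 were called higher, against 5.2% of all genes (4.89% lower), and with labelled sex as a term 1, against 1.14% (2.47% lower). Labelled sex keeps Control replicate 2 as female. With the Xist level, the median of the nuclear genes was 0.18 with 44 of 46 positive. With the replicate number as a block 0 were called, against 1.53% and 2.31%. As a share of all counts, the 46 genes made up 0.723% ± 0.017 (SD, n = 3) of the Control libraries and 0.823% ± 0.046 of the MeHg libraries.

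The libraries contributed unequally. Taking for each gene the deviation of a library's log2 CPM from the mean over libraries, the median over the 46 genes was -0.051, -0.067 and -0.15 in Control replicates 1 to 3 and 0.055, 0.016 and 0.24 in MeHg replicates 1 to 3. MeHg replicate 3 was the highest of the 6 libraries for 35 of the 46 genes (76.1%, against 19.5% of all genes tested), and Control replicate 3 the lowest for 26 (56.5%, against 19.5%). The same libraries held the most and the least choroid plexus RNA, at 10205 and 154 CPM. With the choroid plexus score as a covariate the median was 0.11 and 41 of 46 fold changes were positive, with no call in the whole table. Without MeHg replicate 3 the median was 0.15 with 43 of 46 positive, without Control replicate 3 it was 0.18 with 44, and without Control replicate 2 it was 0.23 with 45. Without MeHg replicate 2, the library with brainstem markers, it was 0.28 with 45 positive and 11 genes were called higher and 0 lower, against 2.16% and 4.16% of all genes.

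**Figure D2:**
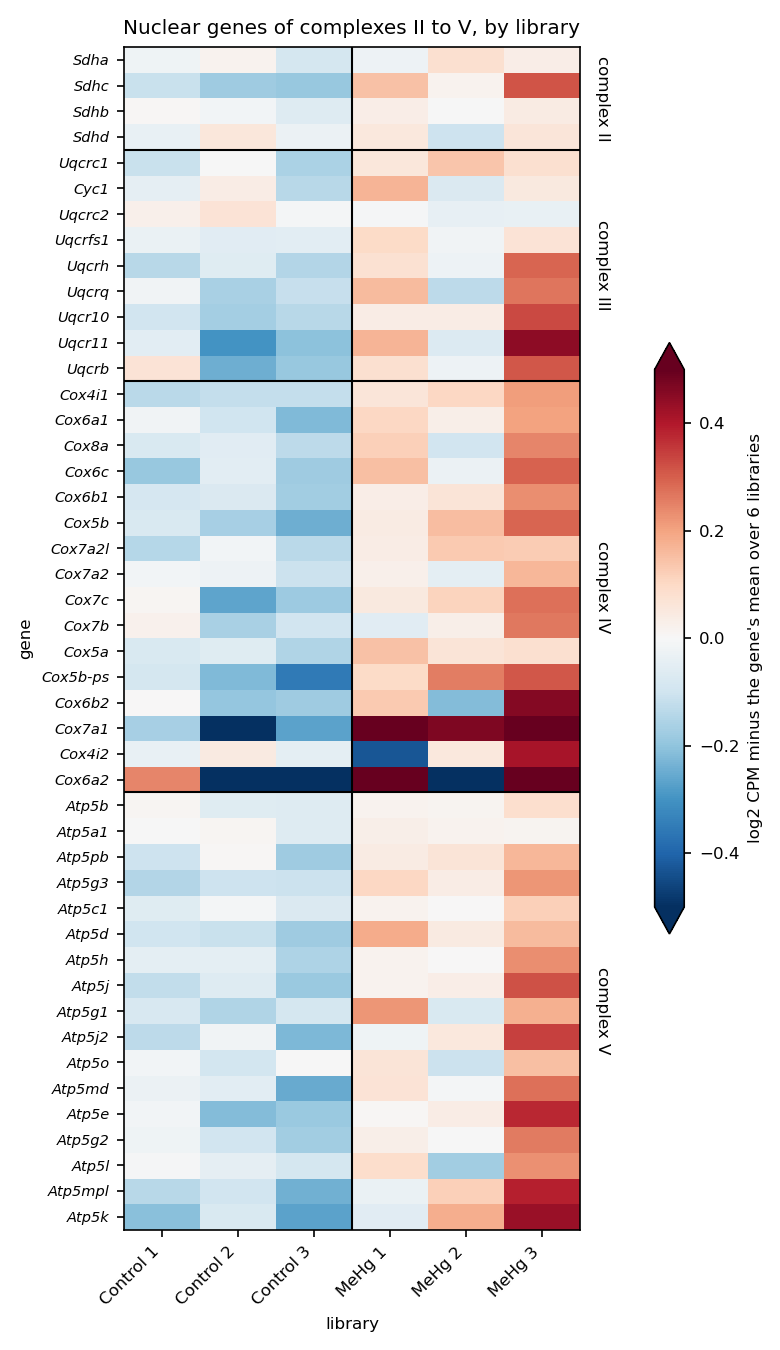
Deviation of log2 CPM from the mean over the 6 libraries for the nuclear genes, grouped by complex, with 1 row per gene and 1 column per library. MeHg replicate 3 holds the highest value for 35 of 46 genes and Control replicate 3 the lowest for 26.

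Complex II showed the smallest shift, its 4 genes having a median log2 fold change of 0.055. Sdhc, which codes a membrane anchor of the complex and lies on chromosome 1 at 170954734 to 170978172 (mm39, minus strand), was at 92.6, 88.4 and 87.7 CPM in Control and 111, 101 and 124 CPM in MeHg. All 3 MeHg libraries were above all 3 controls, by a log2 fold change of 0.32 ± 0.08, with an adjusted p of 0.0638 by edgeR. The other anchor, Sdhd, was at 85.4, 91.2 and 85.8 CPM in Control and 91.0, 81.5 and 91.4 CPM in MeHg, which is a fold change of 0.01 ± 0.07 with overlapping groups. Sdha, the flavoprotein that oxidises succinate, was at 480, 493 and 459 CPM in Control and 479, 516 and 499 CPM in MeHg (0.06 ± 0.07). Sdhb, the iron-sulfur subunit, was at 101, 99.3 and 96.1 CPM in Control and 103, 100 and 103 CPM in MeHg (0.05 ± 0.05). Sdhc thus stood apart from the other members of its own complex, a difference between genes that was not tested. Per length, Sdha was the most abundant at a mean of 111 FPKM and Sdhc the least at 29.1 FPKM.

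Complex III had a median of 0.20 over its 9 nuclear genes. Of these, 8 had a positive fold change, against 51.1% of all genes tested. In 4, all MeHg libraries lay above all controls, against 13.9% of all genes tested. The smallest p-values of the complex belonged to 3 small accessory subunits. Uqcr10 was at 55.2, 52.3 and 53.5 CPM in Control and 60.5, 60.4 and 74.0 CPM in MeHg, a log2 fold change of 0.27 ± 0.09 (adjusted p = 0.118, edgeR) with the groups apart. Uqcr11 was at 54.0, 45.5 and 48.6 CPM in Control and 63.0, 53.4 and 76.4 CPM in MeHg (0.38 ± 0.13, adjusted p = 0.119, edgeR), and here MeHg replicate 2 lay under Control replicate 1. Uqcrh, the hinge protein between cytochrome c1 and cytochrome c, was at 110, 116 and 109 CPM in Control and 128, 119 and 148 CPM in MeHg (0.24 ± 0.08, adjusted p = 0.131, edgeR), with the groups apart. The core protein Uqcrc2 was the one nuclear gene of the 46 with a negative fold change in this fit, at 159, 163 and 155 CPM in Control and 155, 151 and 152 CPM in MeHg (-0.06 ± 0.05). Its partner Uqcrc1, the iron-sulfur protein Uqcrfs1 and cytochrome c1 (Cyc1) stood at 0.18, 0.10 and 0.10, and Uqcrb and Uqcrq at 0.24 and 0.20. Per length, Uqcr10 was the highest at 95.2 FPKM and Uqcrb the lowest at 36.0 FPKM.

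In complex IV all 16 nuclear genes had a positive fold change, with a median of 0.24 (0.22 for the 11 left without tissue-specific isoforms and the copy of Cox5b). In 10 of the 16, all MeHg libraries lay above all controls, against 13.9% of all genes tested. Cox4i1, the largest nuclear subunit, which is needed to assemble the enzyme, lies on chromosome 8 at 121394961 to 121400946 (plus strand). It was at 377, 380 and 380 CPM in Control and 432, 444 and 479 CPM in MeHg. The 3 controls differed by little and all 3 MeHg libraries lay above them, by 0.25 ± 0.06 (adjusted p = 0.0687, edgeR). Cox5b, a zinc-binding subunit on the matrix side, lies on chromosome 1 at 36730530 to 36732762 (plus strand) and was at 107, 100 and 94.9 CPM in Control and 116, 125 and 138 CPM in MeHg (0.33 ± 0.08, adjusted p = 0.0602, edgeR). The row Cox5b-ps on chromosome 13, named as a pseudogene but listed as protein-coding, was identical to Cox5b at 363 of 367 aligned bases, so that reads of the 2 can be exchanged. It was at 12.02, 10.98 and 9.99 CPM in Control and 13.7, 15.2 and 15.8 CPM in MeHg (0.44 ± 0.13, adjusted p = 0.0880, edgeR), with the groups apart.

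Cox6a1, a subunit that helps join the enzyme into dimers, was the most abundant nuclear gene of the 4 complexes per length, at a mean of 348 FPKM. That rank depends on the deposited gene lengths, 702 bases for Cox6a1 and 4237 for Atp5b. By CPM, Atp5b was the highest nuclear gene. Cox6a1 was at 257, 242 and 223 CPM in Control and 279, 265 and 299 CPM in MeHg (0.22 ± 0.07), with the groups apart. The small membrane-spanning subunits Cox8a, Cox7b and Cox7a2 had overlapping groups. Cox8a was at 215, 218 and 207 CPM in Control and 246, 212 and 268 CPM in MeHg (0.18 ± 0.09). Cox7b was at 84.1, 74.1 and 77.5 CPM in Control and 79.6, 84.4 and 99.4 CPM in MeHg (0.16 ± 0.09). Cox7a2 was at 97.8, 97.1 and 91.7 CPM in Control and 100.4, 95.5 and 111 CPM in MeHg (0.10 ± 0.07). In all 3 MeHg replicate 3 was the highest library. Cox6b1, a subunit on the side of the membrane where cytochrome c binds, was at 110.4, 111 and 104 CPM in Control and 119.9, 122 and 137 CPM in MeHg (0.22 ± 0.07), with the groups apart. Cox6c, Cox7c, Cox7a2l and Cox5a lay between 0.19 and 0.29 with the groups apart. Cox5a had the lowest mean of the common subunits at 27.3 FPKM.

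Complex V had a median of 0.22 over 17 nuclear genes, all positive. In 14 of the 17, all MeHg libraries lay above all controls, against 13.9% of all genes tested. The smallest p of the 52 genes belonged to Atp5d, the delta subunit of the rotor stalk, on chromosome 10 at 79974466 to 79981652 (plus strand). It was at 160, 159 and 151 CPM in Control and 194, 177 and 191 CPM in MeHg, a log2 fold change of 0.26 ± 0.06 with an adjusted p of 0.0571 by edgeR. All 3 MeHg libraries exceeded all 3 controls. Atp5g3, one of the genes for the c subunit that forms the rotating membrane ring, was at 188, 194 and 193 CPM in Control and 224, 213 and 243 CPM in MeHg (0.24 ± 0.06, adjusted p = 0.0745, edgeR). Atp5mpl, a small membrane subunit, was at 42.2, 43.4 and 39.2 CPM in Control and 45.4, 50.4 and 60.7 CPM in MeHg (0.33 ± 0.11, adjusted p = 0.122, edgeR). For both, the groups did not overlap. The other genes for the c subunit had groups apart by narrow gaps. Atp5g1 was at 101.5, 96.5 and 100.9 CPM in Control and 125, 101.6 and 121 CPM in MeHg (0.22 ± 0.08), and Atp5g2 at 62.4, 59.3 and 56.2 CPM in Control and 64.7, 63.2 and 75.8 CPM in MeHg (0.19 ± 0.09).

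The parts of ATP synthase differed in size of shift. The 5 genes of the catalytic head and central stalk had a median of 0.094, within which the large alpha and beta subunits, Atp5a1 and Atp5b, stood at 0.04 ± 0.07 and 0.08 ± 0.07 and the small delta and epsilon subunits, Atp5d and Atp5e, at 0.26 ± 0.06 and 0.28 ± 0.11. Atp5a1 had the lowest fold change of the complex and the highest level per length, at 315 FPKM, next to 314 FPKM for Atp5b. By CPM, Atp5b was higher, at means of 1380 in Control and 1457 in MeHg. Atp5a1 was at 1052, 1061 and 1007 CPM in Control and 1075, 1066 and 1064 CPM in MeHg, so that the groups were apart by a narrow gap. The 3 c-ring genes had a median of 0.22, the 4 genes of the peripheral stalk 0.18, and the 5 membrane and dimer subunits 0.25, the last with a range of 0.10 (Atp5l) to 0.38 (Atp5k). These differences between parts were not tested.

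**Figure D3:**
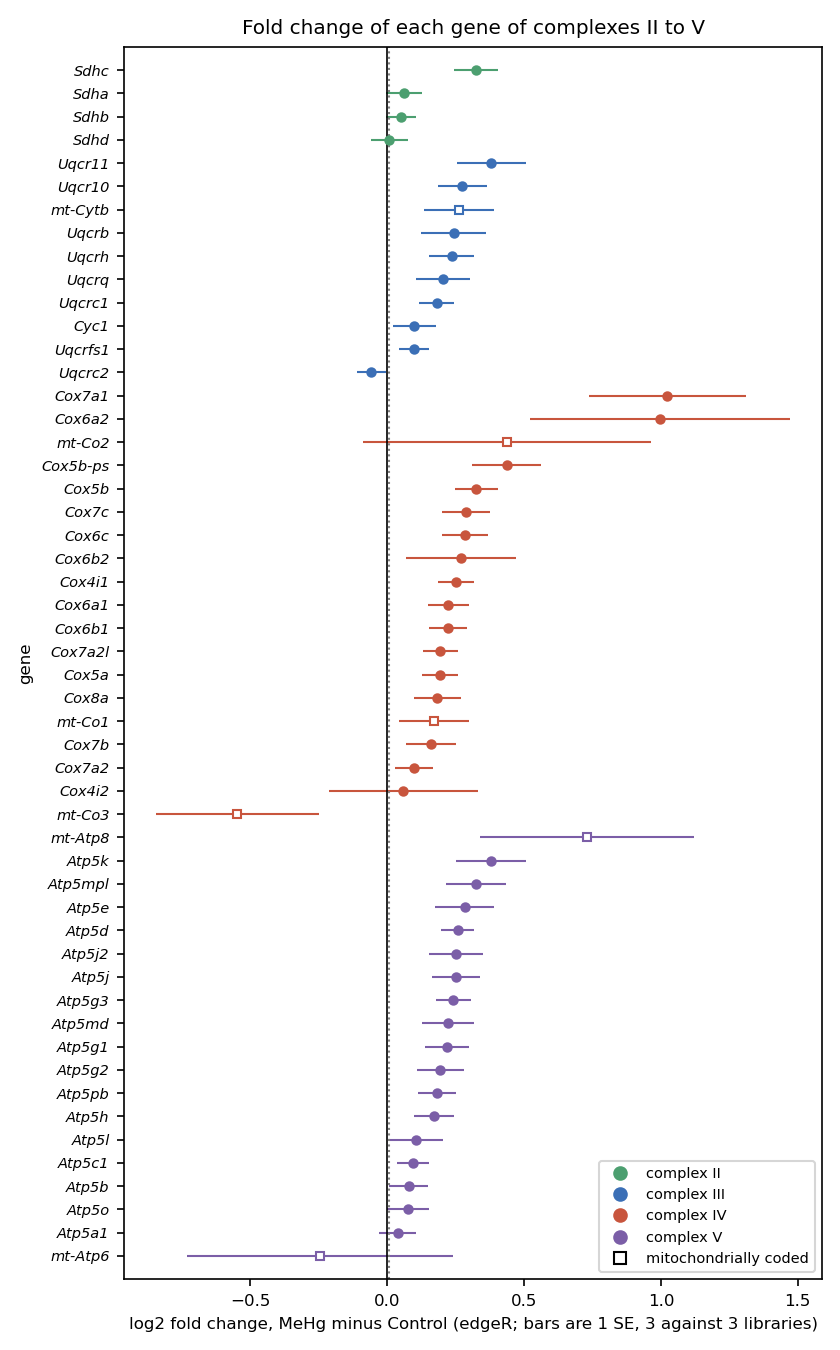
The log2 fold change, MeHg over Control, of each gene with its SE, by complex, from edgeR on 3 libraries per group. The nuclear genes lie between -0.06 (Uqcrc2) and 1.02 (Cox7a1), and 45 of the 46 are above 0; no gene passed an adjusted p of 0.05.

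Complex IV also has subunit isoforms that are best known from heart and skeletal muscle, lung or testis, and in the cerebellum these were near the lower limit of detection. Cox7a1, the heart and muscle form of Cox7a2, was at 2.23, 1.10 and 2.08 CPM in Control and 3.71, 3.47 and 3.77 CPM in MeHg. All 3 MeHg libraries were above all 3 controls, by a log2 fold change of 1.02 ± 0.29 (adjusted p = 0.0833, edgeR), and by 0.75 ± 0.23 without Control replicate 2. Set against Cox7a2 by FPKM, Cox7a1 stood at 3.34% ± 1.17 (SD, n = 3) in Control and 6.31% ± 0.27 in MeHg. The log2 difference of the ratio was 0.99 ± 0.34 (two-sided exact permutation p = 0.1, or 0.45 after adjustment over the 9 ratios computed; groups of 3 cannot give a smaller p). The cardiac and skeletal muscle markers summed to 8.57 to 9.92 CPM in Control and 10.7 to 13.3 CPM in MeHg. No single one of these markers had the groups apart. Myh6, the largest, was at 5.93 to 8.27 CPM in Control and 8.09 to 10.4 CPM in MeHg. The part of muscle RNA in the Cox7a1 result was not tested.

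Cox8b, the muscle form of Cox8a, was one of the rows under 1 CPM. It had 10, 3 and 2 counts in Control and 16, 11 and 27 in MeHg, which gave a ratio to Cox8a of 0.214% ± 0.166 in Control and 0.815% ± 0.310 in MeHg. The log2 difference was 2.12 ± 0.66 (exact permutation p = 0.1, adjusted 0.45), with the groups apart but resting on few counts. Cox6a2, the muscle form of Cox6a1, was at 1.78, 1.05 and 0.647 CPM in Control and 3.28, 1.05 and 2.76 CPM in MeHg, with MeHg replicate 2 at the level of Control replicate 2. Its ratio to Cox6a1 differed by 0.77 ± 0.60 (exact permutation p = 0.3).

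The remaining isoforms did not separate the groups. Cox4i2, the lung form of Cox4i1, was at 2.03, 2.15 and 2.01 CPM in Control and 1.55, 2.16 and 2.76 CPM in MeHg, and its ratio to Cox4i1 differed by -0.23 ± 0.20 (exact permutation p = 0.4). Cox6b2, the testis form of Cox6b1, was at 5.93, 5.19 and 5.25 CPM in Control and 6.49, 5.10 and 8.16 CPM in MeHg, with a ratio difference of 0.03 ± 0.16 (exact permutation p = 0.9). Cox7b2, under the limit of 1 CPM, was at 0.812, 0.748 and 0.719 CPM in Control and 1.05, 0.589 and 0.472 CPM in MeHg, and its ratio to Cox7b differed by -0.35 ± 0.43 (exact permutation p = 0.5). The 3 genes for the same c subunit kept near-constant proportions: by FPKM, Atp5g3 gave 61.2% ± 1.2 in Control and 61.9% ± 0.7 in MeHg, Atp5g2 24.7% ± 1.2 and 24.1% ± 0.9, and Atp5g1 14.13% ± 0.41 and 14.03% ± 1.07. The log2 differences were 0.02 ± 0.02, -0.03 ± 0.05 and -0.01 ± 0.07. The order of the 3 genes depends on their deposited lengths, 2181 bases for Atp5g3, 1675 for Atp5g2 and 4912 for Atp5g1. By CPM, Atp5g1 lay above Atp5g2, at means of 99.6 and 59.3 in Control and 116 and 67.9 in MeHg.

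**Figure D4:**
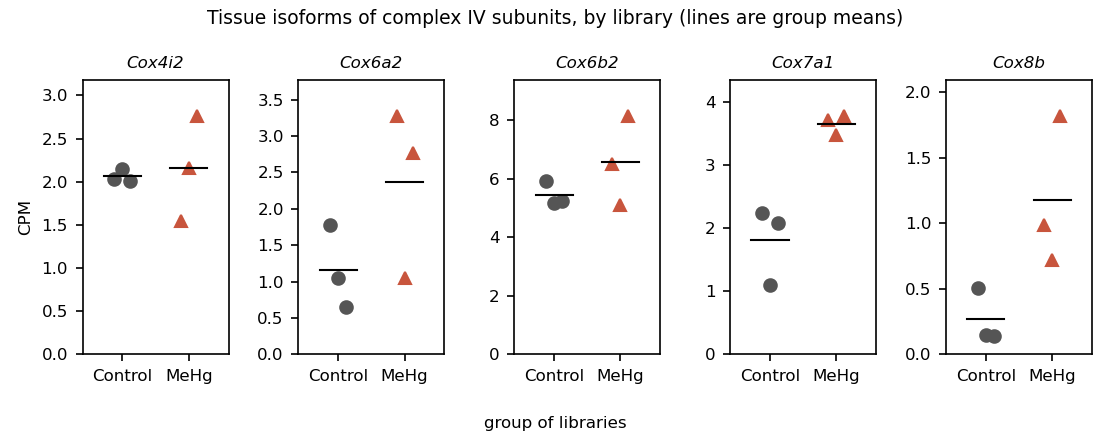
Level in CPM of tissue isoforms of complex IV in each library, with 1 point per library, the groups side by side and a line at each group mean. Cox7a1 lies at 3.47 to 3.77 CPM in MeHg and 1.10 to 2.23 CPM in Control, while Cox6a2 overlaps between the groups.

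The fold change varied with gene length, as the deposited table gives it, over the whole table. Among all genes tested the median log2 fold change was 0.11 for lengths of 1000 to 2000 bases, -0.019 for 4000 to 8000 bases and -0.11 from 8000 bases. The nuclear genes here are short, with a median length of 1631 bases against 4105 for all genes. Within each bin that holds more than a single one of them, their median lay above that of all genes tested, which include them. The medians were 0.24 against 0.077 at 500 to 1000 bases (11 genes) and 0.20 against 0.11 at 1000 to 2000 (17 genes). They were 0.22 against 0.051 at 2000 to 4000 (11 genes) and 0.14 against -0.019 at 4000 to 8000 (6 genes). Single genes could lie below the median of their bin, as Sdhd did at 0.01. With a loess offset per library for length, their median was 0.15 with 38 of 46 positive, and with one for length and GC content 0.14 with 40 of 46. Sdhd, Sdhb, Atp5a1, Cox7a2 and Cox4i2 were among those below 0 under the length offset.

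**Figure D5:**
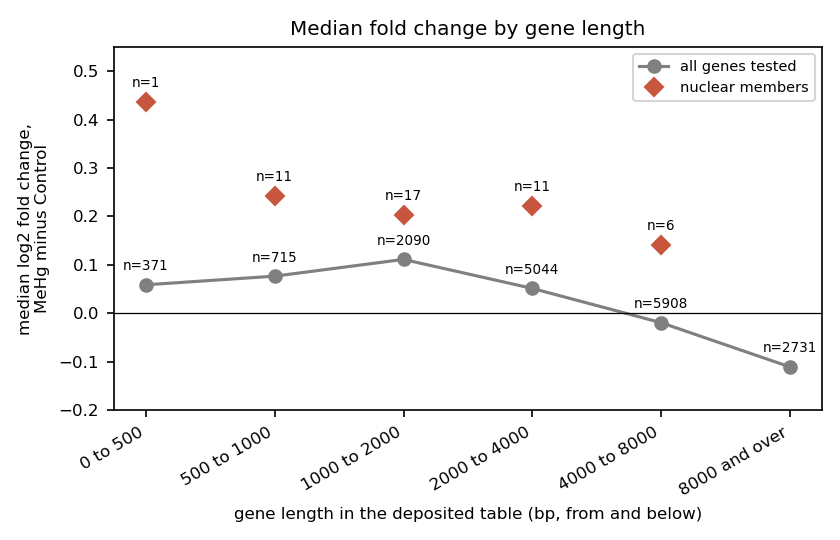
Median log2 fold change by gene length in bases for all genes tested and for the nuclear genes of complexes II to V. The medians of the nuclear genes lie above those of all genes in each length bin from 500 to 8000 bases. They are 0.14 to 0.24 against -0.019 to 0.11.

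Genes that serve the same complexes gave a mixed picture, and only 1 of those listed passed the test. For comparison with each list, 51.1% of all genes tested had a positive fold change, 0.575% were called higher and 1.79% lower. Of the assembly factors, 3 of 4 for complex II, 4 of 6 for complex III, 13 of 24 for complex IV and 2 of 5 for complex V had a positive fold change, with medians of 0.089, 0.18, 0.033 and -0.012 and 0 calls. The smallest p-values were those of Sdhaf4 (0.18 ± 0.17) and Sdhaf1 (0.17 ± 0.22) for complex II and of Uqcc3 (0.33 ± 0.13) and Uqcc2 (0.22 ± 0.10) for complex III. For complex V they were those of Tmem242 (0.27 ± 0.11) and Atpaf2 (0.18 ± 0.11), and for complex IV those of Higd1a (0.26 ± 0.08) and Higd2a (0.20 ± 0.08). Ndufa4, a further subunit of complex IV, and Cycs, cytochrome c, stood at 0.19 ± 0.08 and 0.12 ± 0.08. Of the adenine nucleotide and phosphate carriers 8 of 8 were positive (median 0.092), among them Slc25a4, which exchanges ADP for ATP, at 0.18 ± 0.06, and Vdac1, a channel of the outer membrane, at 0.15 ± 0.07. Of the tricarboxylic acid cycle genes 11 of 15 were (median 0.045), with Idh3a at 0.13 ± 0.06 and Suclg1 at 0.15 ± 0.06. The nuclear genes of complex I stood close to those of complexes II to V, with 35 of 37 positive, a median of 0.19 and 0 calls, led by Ndufa8 at 0.35 ± 0.08 and Ndufc1 at 0.36 ± 0.09. The 7 mitochondrially coded genes of complex I were all positive, with a median of 0.29 and 0 calls. Of them, 2 were higher at an unadjusted p under 0.05 by edgeR, against 11.8% of all genes. mt-Nd4l, which also has a full copy on chromosome 1, stood at 1.14 ± 0.34 (adjusted p = 0.0913, edgeR), and mt-Nd1, which has none in the window compared, at 0.37 ± 0.15 (adjusted p = 0.185, edgeR).

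Most regulators of mitochondrial biogenesis had negative fold changes: 4 of 16 were positive, against 51.1% of all genes tested, with a median of -0.076. Of the 16, 1 was called lower, against 1.79% of all genes, and 0 higher, against 0.575%. The called gene among them was Ppargc1b, a coactivator of nuclear receptors that promotes mitochondrial gene expression. It was at 28.4, 26.9 and 29.2 CPM in Control and 16.4, 21.1 and 13.8 CPM in MeHg, all 3 MeHg libraries under all 3 controls. It fell by 0.72 ± 0.15 on the log2 scale, with an adjusted p of 0.0460 by edgeR. Without any single library other than MeHg replicate 2 it was not called (adjusted p from 0.0705 to 0.207, edgeR), nor was it with upper-quartile scaling (adjusted p = 0.0542), with the length offset (0.0738), with the length and GC offset (0.0813) or with limma on log2 FPKM (0.0785 and 0.0763). With the choroid plexus score as a covariate it stood at -0.58 with an adjusted p of 0.363. In these settings without a call its log2 fold change lay between -0.58 and -0.78. It was called in the other alternatives, among them DESeq2 (adjusted p = 0.000596) and limma-voom (adjusted p = 0.0456). By edgeR it was also called with Xist (adjusted p = 0.0188), labelled sex (0.0373) and the replicate block (0.0437). Without MeHg replicate 2 it stood at -0.89 (adjusted p = 0.00793, edgeR). Esrra, a nuclear receptor that Ppargc1b can activate, was at 98.2, 104 and 99.7 CPM in Control and 117, 112 and 121 CPM in MeHg (0.21 ± 0.06, adjusted p = 0.0799, edgeR). Nrf1 and Gabpa, which bind promoters of many respiratory genes, stood at -0.22 ± 0.10 and -0.24 ± 0.10 with adjusted p of 0.214 and 0.186 by edgeR.

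Because the nuclear genes lay on the same side of the controls together, their promoters were searched for the motifs of factors known to act on respiratory genes. RefSeq windows of 250 bases before to 50 bases after the start (build GRCm38.p6) were found for 34 of the 46 genes, as 37 windows. The motif GCATGCG of NRF1 was in 8 of them (21.6%, against 4.44% of 21262 protein-coding windows). CCGGAAG, bound by the ETS family with GABPA, was in 13 (35.1%, against 11.6%), and ATGGCG of YY1 in 8 (21.6%, against 10.9%). TATAAA, the TATA box, was in 2 (5.41%, against 12.6%). Both strands were searched, and GCATGCG overlaps its own reverse complement by 6 bases. None of the 4 motifs was found in 16 of the 37 windows, against 13926 of the 21262 protein-coding windows. The median GC content was 56.7% in these windows and 56.3% in all. A match is a run of letters and does not show binding. Of the genes with the smallest p in complexes III to V, Uqcr11 and Uqcrh held a match. Uqcr10, Cox5b, Cox7a1, Atp5d and Atp5g3 had a window with none of the 4 motifs. Cox4i1 and Atp5mpl had no window, nor had Sdhc of complex II.

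The last 120 bases before the start are given for a gene of each complex, picked because it held a match. Matches are in capitals, 5′ to 3′ on the strand of the gene.
Sdhd: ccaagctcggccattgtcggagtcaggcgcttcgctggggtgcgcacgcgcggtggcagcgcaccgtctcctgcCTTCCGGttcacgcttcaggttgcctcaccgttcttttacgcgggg
Uqcrh: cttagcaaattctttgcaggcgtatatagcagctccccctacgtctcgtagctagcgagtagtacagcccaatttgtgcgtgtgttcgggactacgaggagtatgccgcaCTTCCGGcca
Cox6a1: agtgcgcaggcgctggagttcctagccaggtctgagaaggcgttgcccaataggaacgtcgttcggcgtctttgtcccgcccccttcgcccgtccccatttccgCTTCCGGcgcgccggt
Atp5g2: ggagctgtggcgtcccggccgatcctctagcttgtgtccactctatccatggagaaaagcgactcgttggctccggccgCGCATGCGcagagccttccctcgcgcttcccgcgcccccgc
All 4 genes are on the minus strand, and the stretches are chr9:50603850-50603969 for Sdhd, chr4:116075071-116075190 for Uqcrh, chr5:115348959-115349078 for Cox6a1 and chr15:102671048-102671167 for Atp5g2, in GRCm38.p6. Sdhd, Uqcrh and Cox6a1 carry the ETS motif as its reverse complement, and Atp5g2 carries the NRF1 motif on both strands. Sdhd and Uqcrh share the letters but had log2 fold changes of 0.01 and 0.24.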

How the data were processed

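Per the labels' protocols, total RNA of the cerebellum gave Illumina NovaSeq read pairs of 150 bases. The submitters' processing notes name mm39 and DESeq2. Not given in the sources used here are the aligner, counter, annotation release and strand setting. The deposited count table holds whole-number counts per gene, and a deposited FPKM table was made by the authors from counts, gene length and a library total. The rows used here hold 94.9% to 96.2% of that total in Control and 91.7% to 92.5% in MeHg.

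From the counts, genes were filtered with filterByExpr (16859 kept), scaled by TMM and tested with the quasi-likelihood test of edgeR 4.0.16 in R 4.3.3, group as the only term, with Benjamini-Hochberg adjustment over all genes tested and a threshold of 0.05. The SE is the fold change divided by the square root of F. CPM is the count relative to the TMM-scaled library size, and levels between genes are in FPKM. Ranks of genes by FPKM depend on the gene length in the deposited table. Isoform ratios were compared with two-sided exact permutation tests. Alternatives used DESeq2 1.42.0, limma 3.58.1 (voom, and log2 FPKM with 1 or 0.1 added), other scalings, filters, covariates and offsets, and left out each library.

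The genes, lists, motifs and tests were chosen with earlier results of these data known. Full values are given for Sdha to Sdhd, the mitochondrially coded genes, for each complex the 3 nuclear genes with the smallest p, the gene highest in FPKM and the gene with the lowest fold change, isoform pairs, and in each other list the called genes or else the 2 with the smallest p. Those of the other lists are named by fold change and SE. All other genes named, among them Cox5b-ps, Nrf1 and Gabpa, were chosen after their values were seen. All 52 genes had an identifier in GENCODE vM39, 35 of them with start and end within 1000 bp. No 2 libraries of a group were copies (chi-square per degree of freedom 7.74 to 19.6).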

Additional observations from a re-analysis of the deposited data

How the results depend on the processing

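The counts of called genes changed with the processing more than the direction did. Of the genes of complexes II to V, 15 were called higher and 1 lower (mt-Co3) with no filter, 7 higher with DESeq2, 4 with Xist as a covariate, 1 with labelled sex, and 0 to 11 when a library was left out, where the main test called 0; 16 of the 21 alternatives called none. The nuclear median log2 fold change stayed between 0.11 (choroid plexus covariate) and 0.28, and the mitochondrial median ran from -0.11 to 0.50 when a library was left out. Over all genes, the main 97 higher and 301 lower became 1200 and 1178 with no filter, 569 and 825 with DESeq2, 876 and 824 with Xist, and 0 and 0 with the choroid plexus covariate, with the length offset, with the length and GC offset, and with limma on log2 FPKM. Lower calls were 119 with upper-quartile scaling, which moved the median of all genes from 0.0062 to 0.044, and higher calls 193 with labelled sex. Leaving out a library gave 0 to 373 higher and 0 to 718 lower. Leaving out a library leaves fewer samples, and for the other settings the cause was not tested. Replicate numbers did not pair the samples (correlations of deviations 0.19, 0.35 and -0.24). The replicate block gave 258 higher and 390 lower calls, 0 calls among these genes, and 0.0082 for mt-Atp6.

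Genes near 0 changed sign. Sdhd went to -0.011 with Xist, -0.027 with the choroid plexus covariate, -0.097 with the length offset, -0.053 with length and GC, -0.0018 with FPKM, and between -0.018 and 0.069 when a library was left out. Cox4i2 went to -0.046, -0.042 and -0.10 under the choroid plexus, length, and length and GC settings, and lay between -0.15 (without MeHg replicate 3) and 0.25 when a library was left out. Sdhb went to -0.025 and -0.046 under the length and the length and GC offsets, Atp5a1 to -0.0048 under the length offset, and Cox7a2 to -0.0011 and -0.0034 under the choroid plexus covariate and the length offset. When a library was left out, mt-Co2 lay between -0.60 and 0.85 and mt-Atp6 between -0.61 and 0.64, while mt-Co3 stayed negative, between -0.84 and -0.23. Among the isoform ratios, Cox6b2/Cox6b1 lay between -0.081 and 0.17, Atp5g1 between -0.074 and 0.028, Atp5g2 between -0.066 and 0.0021 and Atp5g3 between -0.0010 and 0.026. Depth limits the rows of a few CPM, which rest on few counts.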
